A study of Mus musculus with 3 samples.

Results

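Hepatocytes from the 2 ends of the liver lobule were compared within 1 single-cell library, that of mice fed a high fat diet with hyodeoxycholic acid. Its cells were chosen by their measured expression. Of the 4873 barcodes of the library, 1923 had 500 genes or more and no more than 50% mitochondrial counts. Each received a score, the summed log expression of Cyp2e1, Oat, Rgn and Cyp2c50 minus that of Cyp2f2, Sds, Hal and Ass1. The 30% with the highest scores, 577 cells, are called pericentral here, and the 30% with the lowest scores, 577 cells, periportal. The poles thus hold 1154 of the 16918 barcodes of the series, and 769 cells lay between them.

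Primary hepatocytes of wild-type mice were isolated by collagenase perfusion after 12 weeks of feeding and profiled with a droplet 3′ kit that marks each captured RNA molecule with a unique molecular identifier (UMI). The HFD_HDCA group received a 60% high fat diet with 0.25% hyodeoxycholic acid (HDCA), a bile acid, the HFD group received the 60% high fat diet alone, and the ND group received a normal diet. Each group had 1 library, so no difference had a replicate check, no test across samples was possible and no p-value was computed. The sources used here do not give the number of mice per library, their sex and age, or the time of day.

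Blood enters the lobule at the portal triad and leaves at the central vein, and hepatocytes along this path divide the work of the liver between them. Periportal hepatocytes are known for gluconeogenesis, the urea cycle, amino acid breakdown and the secretion of plasma proteins. Pericentral hepatocytes are known for cytochrome P450 enzymes, bile acid synthesis and, next to the vein, the capture of ammonia as glutamine under Wnt/β-catenin signalling from the central vein.

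The ordering genes chose the poles, so their levels describe the choice and support nothing. Levels are UMI counts per 1000000 nuclear-encoded counts (CPM), summed over the cells of a pole. Cyp2e1, a cytochrome P450, stood at 10540 CPM in pericentral cells, 5403 in the middle cells and 275 in periportal cells. Oat, which converts ornithine, stood at 2526, 580.0 and 62.1 CPM. Rgn, the calcium-binding regucalcin, stood at 2464, 1518 and 238 CPM, and Cyp2c50, another P450, at 1609, 822 and 88.1 CPM. Cyp2f2, a periportal cytochrome P450, stood at 8.87, 166 and 903 CPM, and Hal, the first enzyme of histidine breakdown, at 9.51, 155 and 529 CPM. Sds, which breaks down serine, stood at 6.97, 119 and 513 CPM. Ass1, a urea cycle enzyme, had the shallowest slope of the 8 ordering genes, at 1330, 2662 and 3503 CPM. The lowest score among pericentral cells was 7.63, with the next cell outside at 7.62. The highest score among periportal cells was -0.72, with the next cell outside at -0.67. Of the 1923 scores 67.5% were above 0, so the periportal pole was cut close to the point at which the gene groups balance. The names pericentral and periportal are those of the rule, and the direction of its own genes is no check of them.

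Both poles consisted mostly of hepatocytes by their markers. The 8 hepatocyte markers, among them Alb and Ttr, summed to 77686 CPM in pericentral cells, 85714 in the middle cells and 115677 in periportal cells, and all 8 were detected in both poles. The 14 endothelial markers summed to 2.54, 449 and 20.6 CPM, and the 11 Kupffer cell markers, of resident macrophages, to 14.6, 408 and 6.26 CPM. Stellate cell markers summed to 5.70, 69.4 and 10.3 CPM, and lymphocyte markers to 4.44, 18.7 and 5.36 CPM. Erythroid markers summed to 53.2, 60.5 and 67.9 CPM. Of the erythroid counts, 82 of 84 in pericentral cells and all 152 in periportal cells were of Alas2. Neutrophil markers had 0 counts in both poles. Of the 148 counts of bile duct markers in periportal cells, 131 were of Sox9 and 17 of Spp1, while Krt19, Krt7, Epcam and Tspan8 had 0 counts. In the pericentral pole 1 cell had over 2% of its counts from markers of other cell types, in the middle 32 cells and in the periportal pole 1 cell. By the rule of 3 or more counts of such markers, the numbers were 4, 48 and 22 cells. No barcode of the poles occurred among the pole cells of the HFD or ND libraries.

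The poles differed in depth and in mitochondrial share. Median depth was 2368 UMIs per cell in pericentral cells, 1285 in the middle cells and 4701 in periportal cells. The median mitochondrial share of a cell was 6.96%, 6.49% and 12.4%. With each cell thinned to 1000 UMIs and shallower cells left out, cells were scored and the poles drawn anew. A median of 574 genes was then detected in 496 pericentral cells, 569.5 in 660 middle cells and 530.0 in 496 periportal cells. In the poles of the main rule, without thinning, the medians were 1091, 685 and 1614 genes. The order of the poles was thus reversed after thinning. The 1000 UMIs include mitochondrial counts, with median shares of 7.1% in pericentral and 12.3% in periportal cells. Nuclear-encoded depth was therefore not equal. The part of depth and mitochondrial share in the gene differences below was examined only by leaving out or thinning cells, as given in the closing section.

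**Figure D1:**
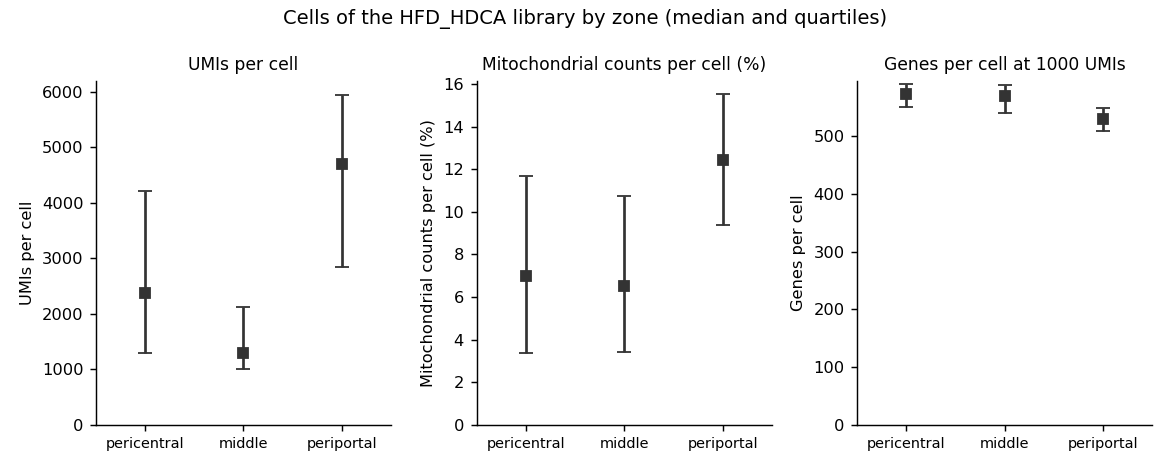
UMIs per cell, percent of counts from mitochondrially encoded genes, and genes per cell after thinning to 1000 UMIs, in the pericentral, middle and periportal cells of the HFD_HDCA library. Squares are medians and bars are quartiles over cells of 1 library. For the thinned cells the poles were drawn anew. Periportal cells had the highest median depth, 4701 UMIs, and the highest median mitochondrial share, 12.4%.

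Counts of 1577823 nuclear-encoded UMIs in pericentral cells and 2237009 in periportal cells gave 4200 genes with at least 100 counts over both poles, the ordering genes left out. Of these, 140 (3.33%) were higher by at least 2-fold in pericentral cells and 88 (2.10%) were lower by at least 2-fold. These shares are the background for the counts of list and family members below. Every comparison below is the log2 ratio of pericentral over periportal CPM, taken after adding 0.5 to each count, with an exact binomial 95% interval that covers counting error only. The interval lay off 0 for all 228 genes past 2-fold, since the poles hold many counts, but cells of 1 library are not replicates. The median ratio over the 4200 genes was 0.08, and the median distance from 0 was 0.24. Steep differences were more often pericentral, with 45 genes at least 4-fold higher against 29 at least 4-fold lower, and 20 at least 16-fold higher against 6 at least 16-fold lower. In 222 of the 228 genes the middle cells lay between the poles.

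The 12 genes with the highest ratios included several cytochrome P450 genes, a glutamate transporter and a fatty acid receptor. Slc1a2, which takes up glutamate, had 391 CPM in pericentral cells, 49.3 in middle cells and 3.13 in periportal cells, a 117-fold difference (log2 ratio 6.87, 5.91 to 8.29). Cyp2c29, a cytochrome P450, had 1528, 500.1 and 25.03 CPM (5.92, 5.55 to 6.34). Cyp1a2, which oxidises caffeine and aromatic amines, had 713, 246 and 20.6 CPM (5.10, 4.69 to 5.57). Cyp3a11, a main drug-oxidising enzyme of mouse liver, had 442, 122 and 10.3 CPM (5.40, 4.83 to 6.09). All of these levels were ordered from pericentral through middle to periportal cells. Cd36, a fatty acid uptake receptor, had 378, 104 and 8.94 CPM (5.37, 4.76 to 6.12). The other genes among the 12 highest were Cyp2c38 at 6.34, Serpina7 at 6.13, Rdh9 at 5.53, Nxpe2 at 5.12, Mup11 at 5.08, Cyp2a5 at 4.94 and Cldn2 at 4.91. Serpina7 encodes the carrier of thyroid hormone in plasma, Rdh9 is a retinol dehydrogenase, Cyp2a5 is a cytochrome P450 and Cldn2 is a tight junction protein. Cyp2c38 rested on 142 counts in pericentral cells against 2 in periportal cells, with an interval of 4.77 to 9.71. Counts of the Cyp2c, Cyp2a, Cyp3a and Mup genes are uncertain as to which near-identical copy they belong.

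The 12 genes with the lowest ratios included several metabolic enzymes, a lysosomal protease and a hormone receptor. Etnppl, which breaks down phosphoethanolamine, had 15.2 CPM in pericentral cells, 82.1 in middle cells and 383 in periportal cells, 24.7-fold lower in pericentral cells (log2 ratio -4.63, -5.30 to -4.07). Ctsc, a lysosomal protease, had 9.51, 104 and 283 CPM (-4.85, -5.74 to -4.16). Hsd17b13, a lipid droplet enzyme known from studies of human fatty liver, had 55.8, 218 and 649 CPM (-3.53, -3.87 to -3.23). These levels were ordered from periportal through middle to pericentral cells. Aldh1b1, a mitochondrial aldehyde dehydrogenase, had the lowest ratio of all at -5.44, on 2 counts against 153, with an interval of -8.81 to -3.88. Hsd17b6, a steroid and retinoid dehydrogenase, stood at -4.45, Esr1, the oestrogen receptor alpha, at -4.25, Rasgef1b at -3.86, Slc3a1, a subunit of the cystine transporter, at -3.78, and Fst, the activin inhibitor follistatin, at -3.59. Serpina12, which encodes vaspin, stood at -3.43. Serpina1e, a copy of the gene of alpha-1-antitrypsin, had 434, 1277 and 4671 CPM (-3.43, -3.54 to -3.32), and which of the near-identical Serpina1 copies its counts belong to is uncertain. Tmsb4x, which encodes the actin-binding thymosin beta 4, was also among the 12 lowest at -2.84, but 88 of its 116 periportal counts lay in 1 cell.

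**Figure D2:**
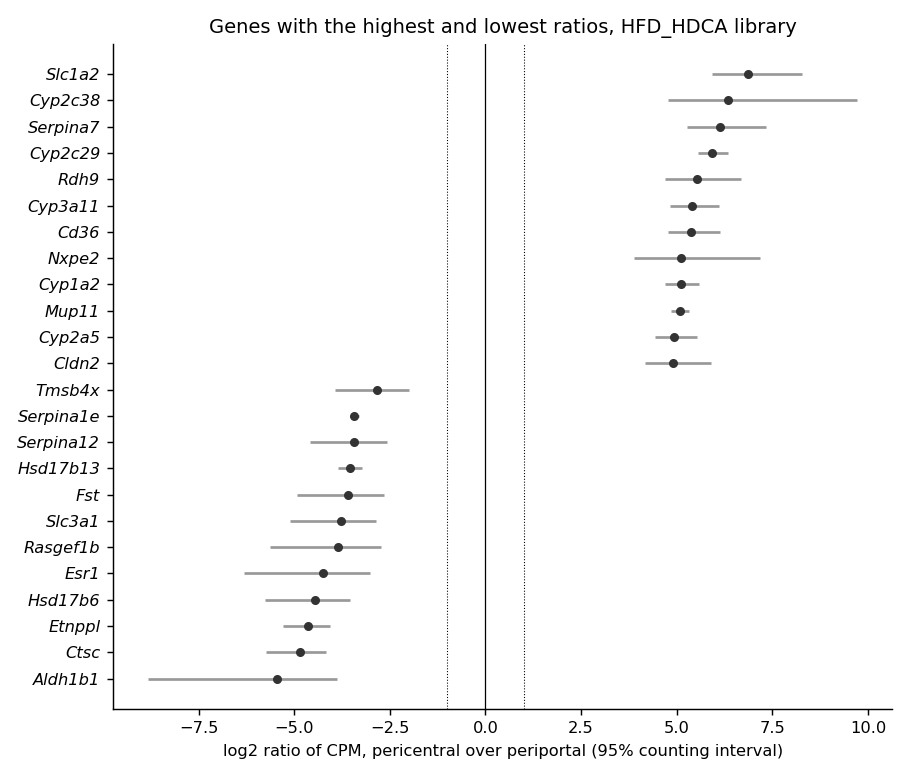
Log2 ratio of CPM, pericentral over periportal cells of the HFD_HDCA library, for the 12 genes with the highest and the 12 with the lowest ratio among genes that reached 50 CPM in their higher pole. Bars are 95% intervals for counting error and dotted lines mark 2-fold. The ratios run from 6.87 for Slc1a2 to -5.44 for Aldh1b1.

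The stretch before the start site was read for genes at both ends, to show the letters searched for 2 liver factors beside the genes whose levels differed. The motif of TCF/LEF, the factors that act with β-catenin, was searched as CTTTGAT and CTTTGAA, and that of HNF4, a nuclear receptor of hepatocytes, as CAAAGTCC, on both strands of the 250 bases before the start in RefSeq's GRCm38.p6 table. The motifs share the letters CAAAG, so 1 stretch can match both. A promoter is shown for Cyp1a2 and Cyp3a11, which were among the 12 highest ratios, and for Slc3a1, which was among the 12 lowest. Each of these holds a match, which is not typical of the genes at the ends. Of 13 promoters of the 12 highest, 3 had TCF/LEF and 2 had HNF4 letters. Of 14 promoters of the 12 lowest, 3 had TCF/LEF and 1 had HNF4 letters. Capitals mark a match, read 5′ to 3′ on the strand of the gene.
Cyp1a2, chr9:57683656-57683905, minus strand, 1 TCF/LEF match: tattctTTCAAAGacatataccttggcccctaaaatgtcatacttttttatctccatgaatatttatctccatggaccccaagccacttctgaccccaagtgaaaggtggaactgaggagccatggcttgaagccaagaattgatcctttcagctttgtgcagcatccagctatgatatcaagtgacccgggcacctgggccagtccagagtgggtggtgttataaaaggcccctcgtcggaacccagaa
Cyp3a11, chr5:145879855-145880104, minus strand, 1 HNF4 match: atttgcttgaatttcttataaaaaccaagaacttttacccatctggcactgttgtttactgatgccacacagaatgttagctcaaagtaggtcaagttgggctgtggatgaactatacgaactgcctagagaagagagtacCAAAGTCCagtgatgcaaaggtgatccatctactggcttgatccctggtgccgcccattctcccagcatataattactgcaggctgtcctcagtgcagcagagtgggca
Slc3a1, chr17:85028097-85028346, plus strand, 1 HNF4 and 1 TCF/LEF match: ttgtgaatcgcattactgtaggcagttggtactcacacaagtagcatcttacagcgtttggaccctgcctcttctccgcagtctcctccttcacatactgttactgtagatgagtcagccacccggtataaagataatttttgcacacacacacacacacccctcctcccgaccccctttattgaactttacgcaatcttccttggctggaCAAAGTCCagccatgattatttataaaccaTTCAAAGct

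Matches stood before genes of both poles. TCF/LEF letters were found in 13 of 158 promoters (8.23%) of genes at least 2-fold higher in pericentral cells and in 7 of 93 (7.53%) of genes at least 2-fold lower, against 5.41% of 4365 promoters of all measured genes and 7.48% of all promoters of the table. HNF4 letters were found in 3.16%, 3.23%, 1.56% and 1.2% of the same sets. A match is a description of the letters and not a bound site.

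The landmark genes of each pole, a list compiled with earlier results of these data known, ran in the direction of their names. Of 25 pericentral landmarks 20 were measured, all 20 at least 2-fold higher in pericentral cells, with a median log2 ratio of 3.55. Besides the genes above they included Gulo at 4.32, the last enzyme of vitamin C synthesis, Nr1i3 at 2.88, the xenobiotic receptor CAR, Ahr at 2.69, the aryl hydrocarbon receptor, and Por at 1.07, the electron donor of the P450 enzymes. Of 30 periportal landmarks 26 were measured, 16 of them at least 2-fold lower in pericentral cells and none higher, with a median of -1.21. Gldc, of the glycine cleavage system, stood at -2.47, Hpx, the haem carrier hemopexin, at -1.76, and Pigr, the polymeric immunoglobulin receptor, at -1.18. The periportal list had a shallower median than the pericentral one, and its members nearest 0 were Mfsd2a, a lysophospholipid transporter, at -0.39 and Trf, the iron carrier transferrin, at -0.44. Not measured were 5 pericentral and 4 periportal landmarks, of which some are given as examples. Lhpp had 62 counts in pericentral cells against 0 in periportal cells, Slc13a3 had 10 against 0, Cdh1 had 0 against 27 and Sdsl had 2 against 38. The other unmeasured landmarks are not given here.

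Wnt pathway genes included 3 with steep ratios and others near 0. Of 17 listed genes 7 were measured, and 3 were at least 2-fold higher, Slc1a2, Glul and Lect2. Glul, the enzyme that makes glutamine from ammonia, had 645 CPM in pericentral cells, 110 in middle cells and 28.2 in periportal cells (log2 ratio 4.51, 4.15 to 4.91). Glul had counts in 91 of the 577 pericentral cells, and a single cell held 139 of its 1018 pericentral counts. Lect2, a secreted chemotactic factor, had 449, 255 and 38.9 CPM (3.52). Ctnnb1, β-catenin itself, lay at 0.11, Apc, of its destruction complex, at 0.07, Tcf7l2, a TCF factor, at -0.20 and Lgr4, a receptor of R-spondins, at -0.44. The targets Lgr5, Axin2, Tbx3 and Notum had too few counts to be measured. Lgr5 had 32 counts in pericentral cells against 1 in periportal cells, Axin2 had 13 against 1, Tbx3 had 54 against 3 and Notum had 52 against 12.

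Along 10 equal bins of the score, from the periportal end in bin 1 to the pericentral end in bin 10, the pericentral genes took different shapes. Glul stood at 22.4 CPM in bin 1, 145 in bin 5, 122 in bin 9 and 1592 in bin 10, so that bin 10 was 13.1-fold above bin 9. Slc1a2 was 9.47-fold higher in bin 10 than in bin 9, and bin 10 held 91.7% of the pericentral counts of Glul and 87.7% of those of Slc1a2. Cyp1a2 had 7.83 CPM in bin 1, 222 in bin 5, 599.6 in bin 9 and 1087 in bin 10, a 1.81-fold step at the end. The last step was 1.86-fold for Cyp2c29 and 1.87-fold for Gulo. With cells thinned to equal depth, those rich in other markers or shallower left out, and the bins drawn anew, Glul had 268 CPM in bin 9 and 979 in bin 10.

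**Figure D3:**
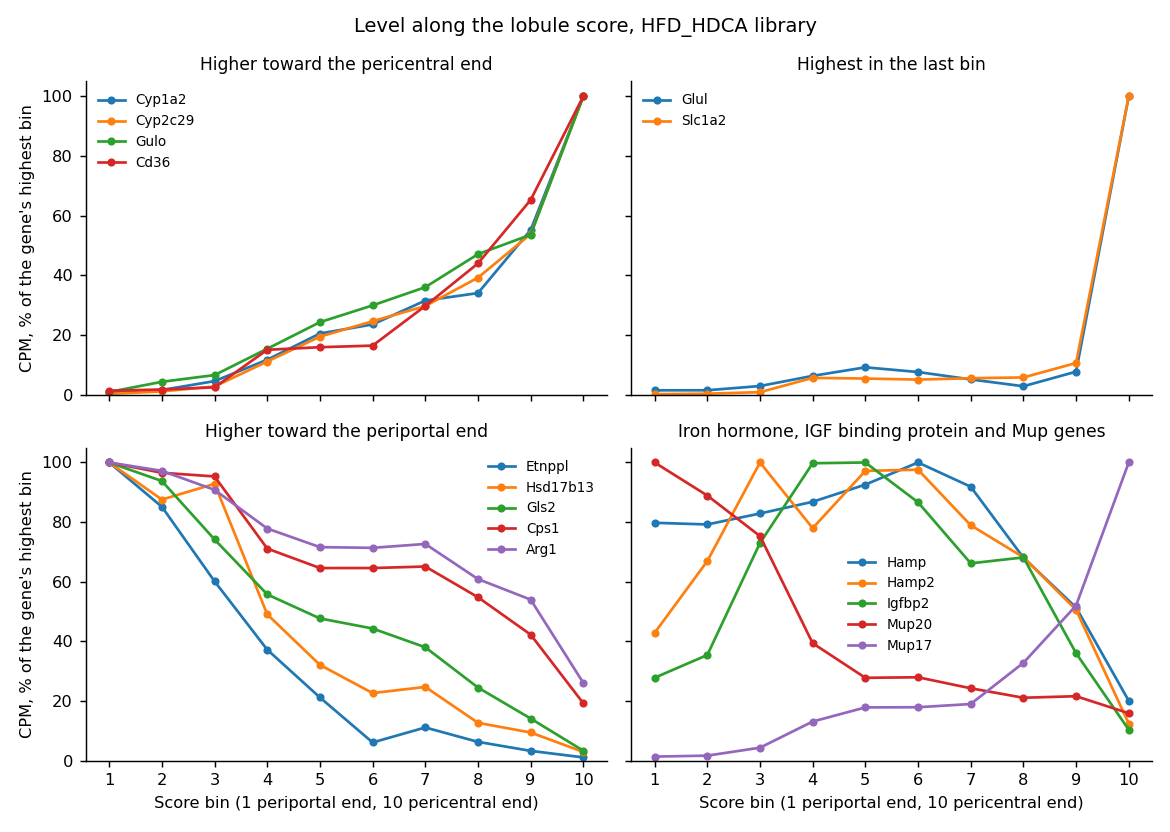
Level of genes in 10 equal bins of the lobule score in the HFD_HDCA library, bin 1 being the periportal and bin 10 the pericentral end, as percent of the CPM in the gene's highest bin. Glul and Slc1a2 are concentrated in bin 10, the P450 genes and Cd36 climb over most bins, and Hamp, Hamp2 and Igfbp2 are highest in bins 6, 3 and 5.

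Several urea cycle genes were lower in pericentral cells, while the glutamine-forming enzyme Glul was higher. Of 15 listed genes 14 were measured, 5 of them lower and 1, Glul, higher in pericentral cells by 2-fold or more, with a median of -0.50. Cps1, which fixes ammonia as carbamoyl phosphate, had 2135 CPM in pericentral cells, 3762 in middle cells and 5561 in periportal cells (log2 ratio -1.38, -1.44 to -1.33). Gls2, the liver glutaminase, had 115, 392 and 787 CPM (-2.77, -3.00 to -2.55). Asl, which splits argininosuccinate, stood at -1.64, Arg1, which releases urea, at -1.09, and Slc7a2, an arginine transporter, at -1.02. Otc, the other mitochondrial step of the cycle, stood at -0.43. Glud1, which releases ammonia from glutamate, ran the other way at 0.45, within 2-fold. Amino acid breakdown genes differed less as a list, with 1 of 34 measured members past 2-fold higher, 4 past 2-fold lower and a median of -0.17. Over all measured genes 3.33% were higher and 2.10% lower. The other values named for this list are single members. Amdhd1 and Uroc1, of histidine breakdown, stood at -1.71 and -1.24, and Csad, of taurine synthesis, at 2.22.

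Genes of glucose output and fat synthesis were lower in pericentral cells where they passed 2-fold. Of 11 measured gluconeogenesis genes 3 were at least 2-fold lower and none higher, with a median of -0.73. Fbp1, fructose bisphosphatase, had 787 CPM in pericentral cells, 1046 in middle cells and 1899.9 in periportal cells (log2 ratio -1.27). Ppargc1a, a coactivator of fasting metabolism, stood at -1.04. Pck1, of the committed step of gluconeogenesis, stood at -0.73, within 2-fold. Of 15 measured genes of glycolysis and glycogen 2 were at least 2-fold lower, Eno1 at -1.22 and Pklr, liver pyruvate kinase, at -1.12, while the median was -0.04 and changed sign under some settings given in the closing section. Of 19 measured lipogenesis genes 2 were at least 2-fold lower and none higher, with a median of -0.05, which also changed sign under some settings. They were Acaca, acetyl-CoA carboxylase, with 26.6 CPM in pericentral cells, 47.0 in middle cells and 90.3 in periportal cells (-1.75), and Acly, which makes cytosolic acetyl-CoA, at -1.33. Scd1, which desaturates fatty acids, stood at -0.95. No cholesterol synthesis or uptake gene of 21 measured reached 2-fold in either direction, and the median was 0.18, with Hmgcs1 at 0.86 and Msmo1 at 0.80.

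Bile acid genes were higher in pericentral cells where they passed 2-fold. Of 20 listed genes of synthesis and its regulators 18 were measured, 6 at least 2-fold higher and none lower, with a median of 0.43. Under the same rule the list median was 0.61 in the HFD library and 0.06 in the ND library. Cyp27a1, which opens the acidic pathway of synthesis, had 170 CPM in pericentral cells, 120 in middle cells and 24.6 in periportal cells (log2 ratio 2.78, 2.37 to 3.23). Cyp7b1, the next hydroxylase of that pathway, had 195, 104 and 68.8 CPM, and Csad stood at 2.22. Cyp7a1, of the rate-limiting step of the classic pathway, had 60 counts in pericentral cells against 1 in periportal cells, below the count minimum, with a ratio of 5.84 and an interval of 3.88 to 11.74. Cyp8b1, which sets the share of cholic acid, ran the other way at -0.73. Of 14 measured transporters of bile acids and organic ions 6 were at least 2-fold higher and none lower, with a median of 0.65. Their median was 0.63 in HFD and 0.04 in ND. Slco1b2, an uptake carrier of the basolateral membrane, had 3750 CPM in pericentral cells, 2278 in middle cells and 1096 in periportal cells (1.77). Abcg8, of the sterol exporter to bile, stood at 1.53.

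Xenobiotic genes and targets of PPARα, the fatty acid receptor that the title of the study names, were also higher in pericentral cells where they passed 2-fold. Of 28 measured xenobiotic genes 13 were at least 2-fold higher and none lower, with a median of 0.88. Of 25 measured PPARα targets 7 were at least 2-fold higher and none lower, with a median of 0.52. Besides Cd36 they were Vnn1, a pantetheinase, at 2.80, Cyp4a12a at 2.31, Acot3 at 2.15, Cyp4a10 at 1.69, Acaa1b, a peroxisomal thiolase, at 1.51 and Cyp4a14 at 1.31. The Cyp4a copies, which hydroxylate the end of fatty acids, are hard to tell apart by counts. Ppara itself had 91.9 CPM in pericentral cells, 71.7 in middle cells and 64.4 in periportal cells (log2 ratio 0.51). Of 27 measured genes of fatty acid oxidation and ketogenesis 2 were at least 2-fold higher, Acaa1b and Eci2, an enoyl-CoA isomerase, and 23 lay above 0, with a median of 0.36. Over all 4200 measured genes 2513 lay above 0. Lipid droplet and uptake genes went both ways, with Cd36, Fitm1 at 4.79 and Fitm2 at 1.30 higher and Hsd17b13 lower among 14 measured (median 0.46). Fitm1 and Fitm2 are droplet-forming membrane proteins. Of 21 measured glutathione and antioxidant genes 4 were higher by 2-fold or more, among them Gstm2 at 4.40 and Mgst1 at 1.13, and 2 lower, the metallothionein Mt1 at -2.22 and Gstp1 at -1.33, with a median of 0.41.

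Secreted plasma proteins lay lower in pericentral cells by less than 2-fold for most members. Of 37 measured complement and coagulation genes 33 lay below 0, against 1687 of all 4200 measured genes. Of the 33, 3 were past 2-fold, and the list median was -0.49. The 3 were Hc, complement C5, at -1.14, C3 at -1.10 and C9 at -1.03. Of 16 measured acute phase genes 1, Hpx, was past 2-fold, and the median was -0.27. Alb, albumin, had 41102 CPM in pericentral cells, 47052 in middle cells and 71959 in periportal cells (log2 ratio -0.81). Lipoprotein genes went both ways, with Pon1, an HDL-bound esterase, at 1.58, Apoa4 at -2.09 and Apoc2 at -1.06, and a median of -0.13 over 18 measured members. Igf1, the growth factor made in response to growth hormone, stood at -0.96.

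Major urinary protein genes, which encode pheromone carriers, pointed in opposite directions. Of 22 listed genes 10 were measured, 7 of them higher and 1 lower in pericentral cells by 2-fold or more. Mup11 had 2540 CPM in pericentral cells, 1312 in middle cells and 75.1 in periportal cells (log2 ratio 5.08, 4.86 to 5.31), and Mup17 had 1640, 439 and 57.2 CPM (4.84). Mup20, which encodes darcin and was singled out after its values were seen, had 5303, 8089 and 24659 CPM (-2.22, -2.25 to -2.18). Male-biased genes likewise went both ways, with 6 of 12 measured at least 2-fold higher, among them Cyp4a12a and Cyp7b1, and 2 lower, Serpina1e and Mup20. Only 2 of 15 female-biased genes were measured, and both were higher in pericentral cells. Cyp2b9 had 395 CPM in pericentral cells, 214 in middle cells and 66.6 in periportal cells (2.56, 2.31 to 2.84), and Acot3 stood at 2.15. Cyp2b13 had 57 counts in pericentral cells against 0 in periportal cells.

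Hepcidin and Igfbp2 were lowest at the pericentral end and highest in inner bins. Hamp, the iron hormone hepcidin, had 2088 CPM in pericentral cells, 4330 in middle cells and 3739 in periportal cells (log2 ratio -0.84). By bins, Hamp stood at 3718 CPM in bin 1, 4660 in bin 6 and 937 in bin 10. Hamp2 had 351, 744 and 556 CPM, and Igfbp2, a binding protein of insulin-like growth factors, had 77.3, 183 and 89.0 CPM. The 5 midlobular landmarks, these 3 with Cyp8b1 and Mup3, had a median of -0.66 with none past 2-fold between the poles. The middle cells were shallow, with a median of 1285 UMIs, and held most of the endothelial and Kupffer marker counts, 1107 CPM of endothelial markers in bin 4. The naming rule took 6 genes by the ratio of middle cells over the higher pole, among genes that reached 50 CPM in a pole. They were Igfbp2, Tmsb4x, at 430.0 CPM in the middle cells, Lars2, Taldo1, Gnai2 and Gnb2. In bins of thinned cells without barcodes rich in other markers, Hamp was highest in bin 7 at 4740 CPM and had 1308 CPM in bin 10.

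Ribosomal protein, oxidative phosphorylation, endoplasmic reticulum stress and clock lists stayed within 2-fold. Early response genes and nuclear retained RNAs passed it for some members, all of them lower in pericentral cells. Of all measured genes, 3.33% were higher and 2.10% lower by that size. None of 76 measured ribosomal protein genes and none of 84 oxidative phosphorylation genes encoded in the nucleus passed 2-fold, with medians of 0.06 and 0.02, near the 0.08 of all measured genes. None of 14 endoplasmic reticulum stress genes and none of 10 clock genes passed it, with medians of -0.14 and -0.23. Of 19 measured early response and heat shock genes 3 were at least 2-fold lower, Gadd45g, Fosb and Fos, with a list median of -0.39. Fos had 441 CPM in pericentral cells, 675 in middle cells and 925 in periportal cells. Of 5 measured nuclear retained RNAs 2 were at least 2-fold lower, Malat1 at -1.50 and Kcnq1ot1 at -1.42, with a list median of -0.85. Among 14 measured liver transcription factors 1, Nr1i3, was at least 2-fold higher. Haem and iron genes had 2 of 17 at least 2-fold higher, Cpox at 1.09 and Blvrb at 1.48, hypoxia genes 1 of 7, Pfkfb3 at 1.46, and genes of the growth hormone axis 0 of 7.

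**Figure D4:**
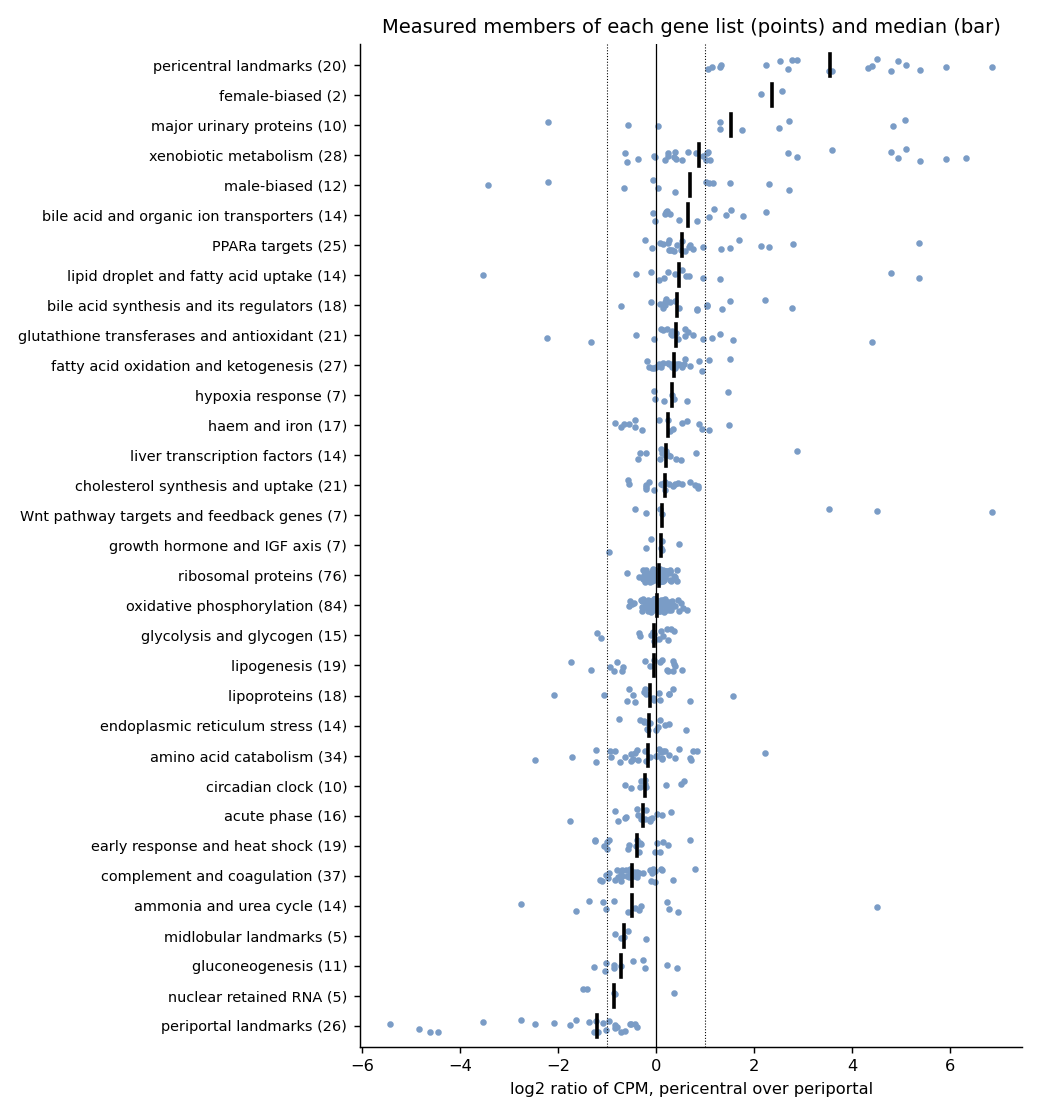
Log2 ratio of CPM, pericentral over periportal cells of the HFD_HDCA library, for each measured member of the gene lists (points) and the median of each list (bar), with the number of measured members in parentheses and dotted lines at 2-fold. The medians run from 3.55 for pericentral landmarks to -1.21 for periportal landmarks.

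The same rule, with the same 8 ordering genes, was applied within the other libraries. Their cells did not enter the choice of the 140 and 88 genes. The rule was set with earlier results of these data known, so this is no independent check. In HFD the poles held 410 cells each of 1368, and in ND 432 cells each of 1441. Of the 140 genes higher in pericentral cells of HFD_HDCA, 96 were measured in HFD, all 96 on the same side and 79 at least 2-fold. In ND 92 were measured, 87 on the same side and 54 at least 2-fold. Over all measured genes under the same rule, 120 of 2547 were higher and 76 lower by 2-fold in HFD, and 94 of 2927 were higher and 42 lower in ND. Of the 88 lower genes, 55 were measured in HFD, all 55 on the same side and 38 at least 2-fold, and 67 in ND, 64 on the same side and 24 at least 2-fold. The share of all measured genes on the same side is not given here. The poles do not sit at the same positions of the score in each library. The lowest score among pericentral cells was 7.63 in HFD_HDCA, 7.41 in HFD and 0 in ND, where 40 pericentral cells scored exactly 0. The highest score among periportal cells was -0.72 in HFD_HDCA, -5.83 in HFD and -7.16 in ND. The periportal poles of HFD and ND were thus cut at lower scores than that of HFD_HDCA. Of the ND pericentral cells 8.10% had over 2% of counts from markers of other cell types, and endothelial markers summed to 1135 CPM there.

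Single genes differed in slope between libraries, as values of 1 library each. Cd36 had a log2 ratio of 5.37 in HFD_HDCA, 2.98 in HFD and 3.73 in ND, with 378 CPM in pericentral cells of HFD_HDCA, 86.6 in HFD and 129 in ND. In HFD Cd36 had 81 counts in pericentral cells and 11 in periportal cells, below the count minimum, so its ratio there is uncertain. Mup11 stood at 5.08, 1.74 and 3.58 in the same libraries, with 75.1, 2463 and 229 CPM in periportal cells. Glul stood at 4.51, 2.21 and 5.03. Cyp3a11 stood at 5.40, 6.25 and 0.70, and its pericentral level was 442 CPM in HFD_HDCA, 328 in HFD and 5683 in ND, with 10.3, 3.83 and 3498 CPM in periportal cells. Serpina1e was shallower elsewhere, at -3.43 in HFD_HDCA, -0.86 in HFD and -1.35 in ND. Cps1 was likewise steeper in HFD_HDCA at -1.38, against -0.56 in HFD and -0.63 in ND. Hamp changed sides, at -0.84 in HFD_HDCA, 0.83 in HFD and -0.22 in ND, all within 2-fold. For Cyp2b9, which was below the count minimum in HFD and ND, the pericentral level was 395 CPM in HFD_HDCA, 9.63 in HFD and 1.22 in ND. With 1 library per group, diet, mice and preparation cannot be told apart in these differences. The poles were also cut at unlike scores, and the part of this in the slopes was not tested.

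**Figure D5:**
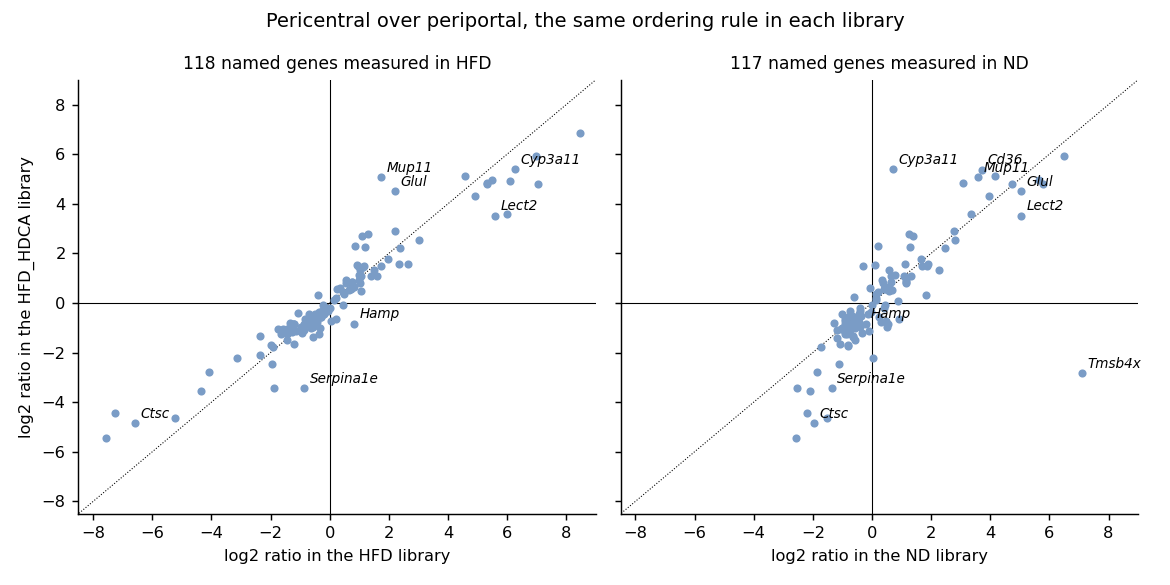
Log2 ratio of CPM, pericentral over periportal, for named genes in the HFD_HDCA library (vertical axes) against the ratio under the same rule in the HFD library (left) and in the ND library (right). The dotted line marks equal ratios, and Tmsb4x lies at -2.84 in HFD_HDCA and 7.10 in ND.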

How the data were processed

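The deposited matrices hold the authors' UMI counts of 32285 features in each barcode. Per the file headers, Cell Ranger 5.0.0 wrote them, and the submitters' processing notes name the build mm10. The sources used here do not give aligner settings or how barcodes were selected. The cells, gene lists and rules were chosen with earlier results of these data known.

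Scores used log1p of counts per 10000 per cell. Counts were summed per pole and scaled to 1000000 nuclear-encoded counts (CPM), mitochondrial genes left out of the total. Genes with at least 100 counts over both poles were measured, and log2 ratios added 0.5 to each count. Intervals of ratios are exact conditional binomial ones at 95%, cover counting error only, and were tested on simulated data. The simulation held counting error alone, so it is no check of variation between cells. No count model was run, since each group has 1 library. Depth was 1577823 nuclear counts in pericentral and 2237009 in periportal cells. No doublet caller was run and doublets were not removed. Across libraries, HFD_HDCA shared 6 barcodes with HFD and 10 with ND.

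The rule for naming took the 12 genes with the highest and the 12 with the lowest ratios. To these it added the 6 with the highest ratio of middle cells over the higher pole. All of these reached 50 CPM in their higher pole. Also taken were up to 3 members of each of 33 lists by absolute ratio, and the landmark, Wnt and ammonia lists. Genes at least 2-fold in opposite directions in 2 libraries were taken as well. The rule left out Xist, Y-linked genes, Gm and Rik models, and genes of ribosomal proteins or the mitochondrial genome. Other genes are list members given as examples or with few counts, and gene families, all chosen after their values were seen. A few genes that the rule takes are not reported here. Each result was recomputed under 15 other settings, and under 1 chosen after seeing the data (leaving out barcodes with over 2% of counts from markers of other cell types), which changed the cell filter, pole width, ordering genes, scaling, count minimum, depth or cells with other markers. Promoters came from RefSeq's GRCm38.p6 table, in which 109 of the 140 higher and 73 of the 88 lower genes were found by symbol. Software was Python 3.11.15, numpy 2.4.6, pandas 2.3.3, scipy 1.17.1 and matplotlib 3.10.9.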

Additional observations from a re-analysis of the deposited data

Results flagged for a closer look

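Tmsb4x, which encodes thymosin beta 4, had a log2 ratio of -2.84 between the poles of HFD_HDCA and 7.10 between those of ND, so the sides were opposite, and this difference was not tested. In HFD_HDCA it had 11 counts in pericentral cells and 116 in periportal cells, 88 of the 116 in 1 cell. In ND it had 415 CPM in pericentral cells and 2.69 in periportal cells, where endothelial markers summed to 1135 and 24.9 CPM. Without barcodes that had over 2% of counts from markers of other cell types, the ratio was -4.96 in HFD_HDCA and 5.14 in ND, still on opposite sides. Leaving out barcodes with 3 or more counts of such markers instead moved the HFD_HDCA ratio above 0, close to 0.50. In the main setting a gene with 0 counts in both poles gets 0.50 from the added 0.5 and the scaling alone. The side under that filter is thus uncertain, and the opposite sides depended on the filter.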

How the results depend on the processing

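Against 140 higher and 88 lower genes, a minimum of 20 counts gave 413 and 266, a minimum of 500 gave 56 and 34, and thinning to 1000 UMIs gave 62 and 33. Of the 64 higher and 36 lower genes still measured after thinning, 56 and 27 passed 2-fold again. The other 13 alternatives gave 122 to 144 higher and 76 to 106 lower genes. Median-of-ratios scaling moved the median of all genes to 0.00 from 0.08, with 123 higher and 106 lower genes. Tmsb4x changed sides with at least 800 genes per barcode (1.07), with poles of 20% (0.59), without Cyp2e1 and Cyp2f2 (0.65), with the periportal ordering genes alone (7.89) and without barcodes holding 3 or more counts of other markers (0.51). In the main setting a gene with 0 counts in both poles gets a ratio of 0.50 from the added 0.5 and the scaling alone. The cause of the changes of side was not tested. Of 2224 alternative values of 139 named genes, 380 moved beyond the counting interval, the 5 of Tmsb4x reversed, and 27 in 10 genes had the other sign. Of 528 list medians, 9 in 6 lists did, those of oxidative phosphorylation, growth hormone, ribosomal proteins, glycolysis, lipogenesis, and haem and iron. Among steep genes, Slc1a2 ranged from 5.18 to 7.99, Nxpe2 from 4.07 to 8.15, Cyp2c38 from 4.05 to 8.39 and Aldh1b1 from -7.63 to -4.25. No paired analysis was possible because each group has 1 library. Genes with few counts in a pole have wide intervals, and genes under 100 counts have no ratio that was counted.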

Other observations

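Gene families, grouped by symbol after their values were seen, differed in how many members lay on each side. Of 34 measured cytochrome P450 genes 19 were at least 2-fold higher and 1, Cyp2a12, at least 2-fold lower in pericentral cells, with a median log2 ratio of 1.07. Within the family 7 of 8 Cyp2c genes were higher. Carboxylesterases had 4 of 11 higher, Ces1d, Ces1g, Ces2a and Ces2e. Among 13 Serpina genes, which encode secreted protease inhibitors and hormone carriers, 1 was higher, Serpina7, and 3 were lower, Serpina1e, Serpina11 and Serpina12. Of 84 solute carriers of the Slc family 7 were higher and 2 lower, Slc7a2 and Slc3a1. The shares over all measured genes were 3.33% higher and 2.10% lower.

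All 13 mitochondrially encoded genes were lower in pericentral cells as a share of all counts, with a median log2 ratio of -0.53. The ratio was -0.83 for mt-Nd5, a subunit of complex I, and -0.77 for mt-Co1, a subunit of complex IV. Mitochondrial counts made up 9.04% of the summed counts of pericentral cells and 13.3% of those of periportal cells.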
